A study of Homo sapiens with 6 samples.

Results

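The genes described here encode 9 protein kinases of the mitogen-activated protein kinase (MAPK) relay: the MAP2K kinases MAP2K1, MAP2K2, MAP2K3, MAP2K4, MAP2K6 and MAP2K7, the JNK kinases MAPK8 (JNK1) and MAPK9 (JNK2), and the p38 kinase MAPK14 (p38 alpha). They were chosen by name out of 20036 genes in the deposited table, with results of these same libraries already known. The differences between groups given for these 9 genes are therefore a description, with no test. All 9 were found, and 8 had a mean of at least 1 FPKM (fragments scaled by gene length and library depth) over the libraries. MAP2K6 was under that level and entered no model.

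In this relay a MAP3K kinase phosphorylates a MAP2K, which phosphorylates a MAPK on a threonine and a tyrosine. MAP2K4 and MAP2K7 activate the JNK kinases, MAP2K3 and MAP2K6 activate p38 kinases, and MAP2K4 can act on both. MAP2K1 and MAP2K2, also named MEK1 and MEK2, activate the ERK growth kinases. Signalling depends on phosphorylation, which RNA levels do not measure. In granulosa cells of the ovary, ERK signalling is known for its part in the response to the ovulatory hormone surge.

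The RNA came from KGN cells, an established human line from an ovarian granulosa cell tumour, wild type by its labels. Cells received a negative control small interfering RNA (siNC) or 1 of a pair of siRNAs against OGT (siOGT1 and siOGT2), and all 3 groups were taken 48 h after transfection by lipofection. OGT encodes O-GlcNAc transferase, which attaches N-acetylglucosamine to nuclear and cytosolic proteins. Each group had 2 libraries, 6 in all. The labels do not say whether libraries of 1 group were separate cultures, so the spread between them may be technical.

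Library totals recovered from the values ran from 16756649 to 21416489 reads. OGT was listed at 22.4 and 23.4 FPKM in the siNC libraries, at 13.8 and 12.9 with siOGT1 and at 14.3 and 14.7 with siOGT2, so that its mean stood at 58.3% and 63.2% of the control mean. Of 10 granulosa markers, 5 were above 1 FPKM in every library (FOXL2, AMH, INHBA, GATA4 and NR5A1), AMHR2, INHA, CYP19A1 and WT1 were below 1, and FSHR was listed at 0. The 4 leukocyte and 3 endothelial markers were each below 0.4 FPKM in every library.

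The start regions of 3 of the genes are shown first, since their RNA levels gave the patterns that follow: MAP2K4 was low with siOGT2 alone, MAP2K3 was low with both siRNAs, and MAPK14 was high with both. Each is 300 bases from RefSeq on GRCh38.p14, 250 before to 50 after an annotated start, and all 9 genes matched that table. All 3 lie on the plus strand: MAP2K4 at chr17:12020627-12020926, MAP2K3 at chr17:21284461-21284760 and MAPK14 at chr6:36027558-36027857. Capitals mark matches to the motifs searched, read on both strands.
MAP2K4: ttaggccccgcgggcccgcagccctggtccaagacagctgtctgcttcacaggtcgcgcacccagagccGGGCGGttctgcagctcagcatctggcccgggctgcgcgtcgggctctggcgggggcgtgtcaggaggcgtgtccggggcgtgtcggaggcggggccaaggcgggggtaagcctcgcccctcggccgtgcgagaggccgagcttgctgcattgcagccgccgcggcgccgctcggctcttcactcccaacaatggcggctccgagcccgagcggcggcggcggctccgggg
MAP2K3: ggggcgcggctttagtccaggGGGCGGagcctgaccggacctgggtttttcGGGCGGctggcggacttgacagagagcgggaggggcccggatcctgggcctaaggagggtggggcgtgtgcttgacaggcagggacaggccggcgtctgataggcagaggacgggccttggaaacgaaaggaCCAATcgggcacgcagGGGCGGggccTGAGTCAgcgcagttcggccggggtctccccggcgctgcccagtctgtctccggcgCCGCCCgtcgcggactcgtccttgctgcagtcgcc
MAPK14: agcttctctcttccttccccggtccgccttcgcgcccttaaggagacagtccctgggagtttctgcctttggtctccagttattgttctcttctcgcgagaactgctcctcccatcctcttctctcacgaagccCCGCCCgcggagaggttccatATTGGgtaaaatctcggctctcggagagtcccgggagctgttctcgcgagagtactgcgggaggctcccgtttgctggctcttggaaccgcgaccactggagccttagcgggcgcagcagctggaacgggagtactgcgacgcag

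The motifs, chosen with these sequences in view, were the AP-1 motif (TGANTCA), the cyclic AMP element (TGACGTCA), the GC box (GGGCGG), the CCAAT box (CCAAT) and the TATA box (TATAAA), none overlapping another in the 9 windows. The AP-1 motif was found in MAP2K3 alone among the 9, beginning 41 bases before the start, and in 7.71% of the 35116 start regions in the table. GC boxes were found in all 9 and in 45.0% of all start regions. MAP2K3 had 4 of them, and MAP2K4 and MAPK14 had 1 each. A CCAAT box was found in MAP2K1, MAP2K3, MAP2K7, MAPK9 and MAPK14, and in 34.6% of all regions. None of the 9 held the cyclic AMP element (1.85% of all regions) or the TATA box (11.5%). G and C made up 74.7% of the MAP2K4 window, 70.7% of the MAP2K3 window and 60.3% of the MAPK14 window, beside a median of 58.7% over all regions. A match is a match of letters only.

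MAP2K4, the kinase that can activate both JNK and p38 kinases, showed the widest spread of group means of the 9 genes. It was listed at 13.8 and 14.0 FPKM with siNC, at 14.5 and 14.7 with siOGT1, and at 8.29 and 8.02 with siOGT2. Both siOGT2 libraries were low, and both siOGT1 libraries lay slightly above both controls, with no overlap between any of the groups. The mean with siOGT2, 8.16 ± 0.194 FPKM (SD, n = 2), was 58.7% of the control mean of 13.9 ± 0.148 (SD, n = 2), and the mean with siOGT1, 14.6 ± 0.0876 (SD, n = 2), was 105% of it. These values rested on 1585 and 1606 control reads, on 1529 and 1794 reads with siOGT1, and on 858 and 767 with siOGT2. In bulk RNA, fewer cells with a transcript and less of it per cell cannot be told apart.

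On the log2(FPKM + 1) scale, which understates changes of genes at low level, MAP2K4 differed from siNC by -0.70 with siOGT2 (limma standard error 0.0389). That difference was the 145th lowest among the 10547 genes tested. With siOGT1 the difference was 0.07. Directly compared, MAP2K4 was higher with siOGT1 than with siOGT2 by 0.77, the 13th highest difference of the 10547. OGT itself, the gene both siRNAs were directed against, differed between them by -0.11. The MAP2K4 gene (ENSG00000065559) spans 123.0 kb at chr17:12020824-12143830 on the plus strand of GRCh38, with 15 annotated transcripts in GENCODE release 29. The microRNA gene MIR744 lies within it, outside its exons. The nearest tested genes did not share the pattern: ZNF18, at 23 kb, had means of 4.196, 5.05 and 4.78 FPKM with siNC, siOGT1 and siOGT2, and ELAC2, at 849 kb, had 12.4, 12.2 and 12.5.

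MAP2K7, the other JNK activator, had its group means in the same order as MAP2K4, with a smaller difference between the siRNAs. It was listed at 4.09 and 3.90 FPKM with siNC, at 4.30 and 4.61 with siOGT1, and at 3.54 and 3.97 with siOGT2. The siOGT1 libraries were above both controls, while the siOGT2 libraries overlapped them. The log2 differences from siNC were 0.13 and -0.07 (standard error 0.0625). Both siOGT1 libraries lay above both siOGT2 libraries, with a difference between the siRNAs of 0.20. That difference was the 644th highest of the 10547, and ranged from 0.13 to 0.26 when 1 library was left out. The siOGT2 value of MAP2K7 moved with single libraries: it was -0.01 without siOGT2 replicate 1, -0.14 without siOGT2 replicate 2 and -0.05 without siNC replicate 1. The ratio of MAP2K4 to MAP2K7 within a library, which does not depend on library scaling, was 3.37 and 3.58 in the control libraries, 3.39 and 3.18 in those of siOGT1, and 2.34 and 2.02 in those of siOGT2. Exons of MAP2K7 overlap those of the antisense gene AC010336.4 over 438 bases, and reads from the 2 strands cannot be told apart unless the libraries were stranded, which the sources used here do not give.

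**Figure D1:**
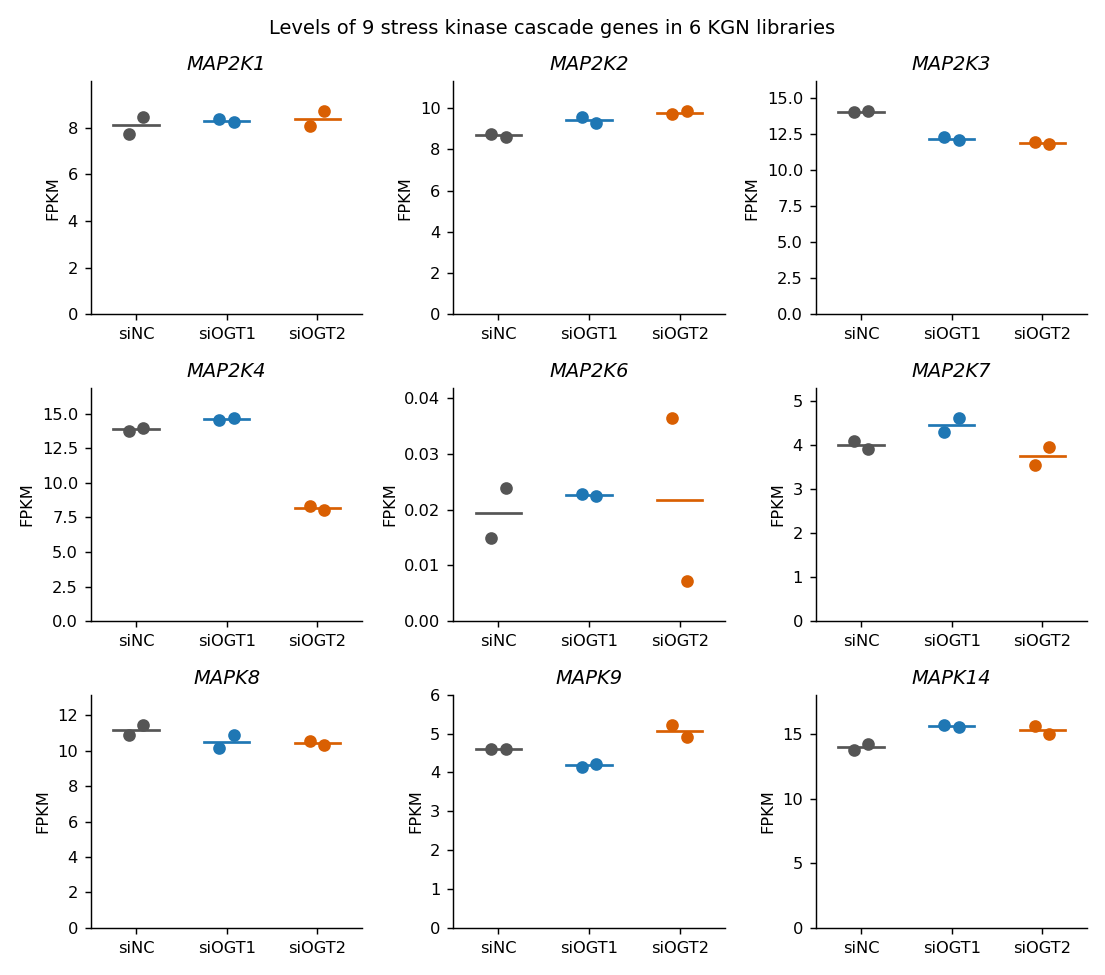
FPKM (vertical axis, from 0, its own scale for each gene) of the 9 genes in siNC, siOGT1 and siOGT2, with a point for each library and a bar at the group mean. MAP2K4 sits near 8 FPKM in both siOGT2 libraries and between 13.8 and 14.7 in the other 4, and MAP2K3 is below both controls in all 4 siOGT libraries.

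MAP2K3, an activator of p38 kinases, was lower with both siRNAs. It was listed at 14.0 and 14.1 FPKM with siNC, at 12.3 and 12.1 with siOGT1, and at 11.9 and 11.8 with siOGT2. All 4 siOGT libraries lay below both controls, and the siOGT2 libraries lay below the siOGT1 libraries. The group means were 14.0 ± 0.0288, 12.2 ± 0.172 and 11.9 ± 0.0827 FPKM (SD, n = 2 each), or 86.7% and 84.6% of control. The log2 differences were -0.19 and -0.22 (standard error 0.0372), and that between the siRNAs was 0.03. With any 1 library left out, the MAP2K3 differences ranged from -0.20 to -0.18 for siOGT1 and from -0.23 to -0.22 for siOGT2. MAP2K3 (ENSG00000034152) lies at chr17:21284672-21315240 on the plus strand of GRCh38.

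MAP2K6, the other p38 activator, was close to absent from these libraries: its reads numbered 5 and 8 in the controls, 7 and 8 with siOGT1, and 11 and 2 with siOGT2. These counts correspond to 0.00716 to 0.0364 FPKM, and the groups overlapped. MAP2K3 was listed at 11.8 to 14.1 FPKM in the same libraries. Within a library the ratio of MAP2K4 to MAP2K3 was 0.982 and 0.994 for the controls, 1.18 and 1.22 for siOGT1, and 0.694 and 0.678 for siOGT2. The ratio therefore lay above the control value with siOGT1 and below it with siOGT2.

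Of the ERK-directed pair, MAP2K1 was listed at 7.72 and 8.47 FPKM with siNC, at 8.36 and 8.24 with siOGT1, and at 8.07 and 8.69 with siOGT2. All 3 groups overlapped, and the log2 differences from siNC were 0.03 and 0.05 (standard error 0.0543), with a sign that turned when siNC replicate 1 was left out (-0.03 and -0.01). MAP2K2 was listed at 8.74 and 8.61 FPKM with siNC, at 9.59 and 9.28 with siOGT1, and at 9.72 and 9.83 with siOGT2. All 4 siOGT libraries lay above both controls, at means of 109% and 113% of control. The log2 differences of MAP2K2 were 0.11 and 0.16 (standard error 0.0413). The MAP2K2 value for siOGT2 ranged from 0.15 to 0.17 when 1 library was left out. Exons of MAP2K1 overlap those of SNAPC5 on the other strand over 216 bases and those of the antisense gene AC116913.1 over 432.

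Summed over the 6 MAP2K genes described here, the level was 48.4 and 49.1 FPKM in the controls, 49.1 and 48.9 with siOGT1, and 41.6 and 42.3 with siOGT2. MAP2K5, with means of 5.05, 5.72 and 5.55 FPKM in siNC, siOGT1 and siOGT2, was not in that sum. MAP2K4 made up 28.5% of that sum in both control libraries, 29.6% and 30.02% with siOGT1, and 19.9% and 18.9% with siOGT2. FPKM levels of different genes are compared here per gene length as the authors set it. The lengths implied by the values were near the summed exon lengths of GENCODE release 29 for 7 of the 9 genes, and were 6462 against 3759 bases for MAP2K1 and 7767 against 5236 for MAP2K2, so the listed levels of those 2 genes relative to the others depend on that choice.

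**Figure D2:**
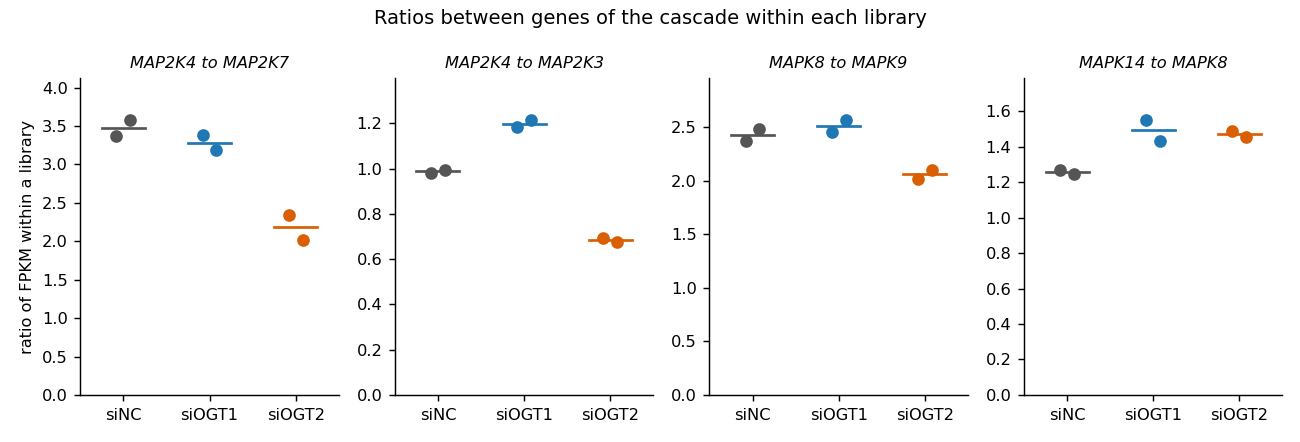
Ratio of FPKM between pairs of the genes within each library (vertical axes, from 0), with a point for each library and a bar at the mean of siNC, siOGT1 and siOGT2. The MAP2K4 to MAP2K7 ratio is 2.34 and 2.02 with siOGT2 and between 3.18 and 3.58 in the other libraries, and the MAPK14 to MAPK8 ratio is above control in all 4 siOGT libraries.

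The JNK genes showed smaller differences. MAPK8, which encodes JNK1, was listed at 10.9 and 11.5 FPKM with siNC, at 10.1 and 10.9 with siOGT1, and at 10.5 and 10.3 with siOGT2. All 4 siOGT libraries were below both controls, but siOGT1 replicate 2 only slightly so (10.865 FPKM against 10.905 in siNC replicate 1). The means were 93.9% and 93.3% of control, and the log2 differences were -0.08 and -0.09 (standard error 0.0467). With 1 library left out, MAPK8 ranged from -0.13 (without siOGT1 replicate 2) to -0.04 (without siOGT1 replicate 1) for siOGT1, and from -0.12 (without siNC replicate 1) to -0.06 (without siNC replicate 2) for siOGT2. MAPK9, which encodes JNK2, was listed at 4.599 and 4.614 FPKM with siNC, at 4.13 and 4.23 with siOGT1, and at 5.22 and 4.91 with siOGT2. The siOGT1 libraries were below both controls and the siOGT2 libraries above them. The log2 differences of MAPK9 from siNC were -0.11 and 0.11. Between the siRNAs the difference was -0.23 (standard error 0.0514), with a range of -0.26 to -0.19 when 1 library was left out. The MAPK8 to MAPK9 ratio was 2.37 and 2.48 in the controls, 2.45 and 2.57 under siOGT1, and 2.02 and 2.10 under siOGT2.

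MAPK14, the p38 alpha gene, was higher with both siRNAs. It was listed at 13.8 and 14.3 FPKM with siNC, at 15.7 and 15.6 with siOGT1, and at 15.7 and 15.0 with siOGT2. All 4 siOGT libraries lay above both controls, at means of 111% and 109% of control, and the 2 siOGT groups overlapped. The log2 differences were 0.15 and 0.12 (standard error 0.0390). They were the 1334th and 3075th highest of the 10547 genes tested, whose median differences were 0.03 and 0.05. MAPK14 ranged from 0.12 to 0.17 for siOGT1 and from 0.09 to 0.15 for siOGT2 when 1 library was left out. The MAPK14 to MAPK8 ratio was 1.27 and 1.248 in the controls, 1.55 and 1.44 under siOGT1, and 1.49 and 1.46 under siOGT2. MAPK14 thus differed in the opposite direction from MAP2K3, the gene of its activator. The MAPK14 calls given below were lost with both siRNAs under no filter, no trend, trimmed mean scaling and quantile normalization. They were also lost without either siNC library and without either library of the siOGT group compared. The siOGT2 call was lost under the replicate block as well. Over the 16 alternatives the MAPK14 differences ranged from 0.12 to 0.17 with siOGT1 and from 0.08 to 0.15 with siOGT2.

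**Figure D3:**
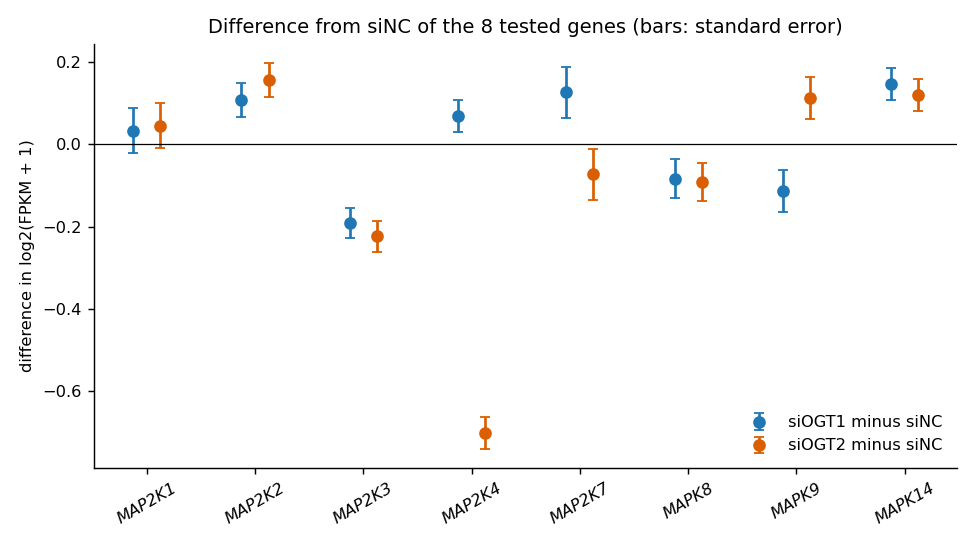
Difference from siNC in log2(FPKM + 1) (vertical axis) for the 8 genes above the level filter, for siOGT1 and siOGT2, with bars of 1 standard error from limma. MAP2K4 with siOGT2 stands at -0.70 and the other 15 points lie between -0.22 and 0.16.

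Over all genes tested, 17.6% passed limma's adjusted p of 0.05 with siOGT1 against siNC (9.51% higher, 8.1% lower), 35.5% with siOGT2 against siNC (22.1% higher, 13.4% lower) and 16.6% with siOGT1 against siOGT2 (8.35% higher, 8.24% lower). Of the 8 kinase genes, 2 passed with siOGT1 (MAPK14 higher, MAP2K3 lower), 4 with siOGT2 (MAP2K2 and MAPK14 higher, MAP2K3 and MAP2K4 lower) and 2 between the siRNAs (MAP2K4 higher and MAPK9 lower with siOGT1). Since the genes were chosen with these contrasts known, nothing is read from these counts beside the shares of all genes. With 1 library left out the 3 counts ranged from 0 to 2, from 2 to 4 and from 1 to 2. The first was 0 without siNC replicate 2, and 1 without siNC replicate 1 or either siOGT1 library. The second was 2 without either siNC or either siOGT2 library, and the third was 1 without siOGT1 replicate 1 or siOGT2 replicate 1. Where the first was 0 by limma, 2 of the 8 had an unadjusted p under 0.05, and voom on all libraries called 2. The median log2 differences of the 8 were 0.05, -0.01 and 0.02, beside 0.03, 0.05 and -0.01 over all genes tested. Scaling by a trimmed mean of log ratios changed the split of all called genes from 1003 higher and 854 lower to 574 and 998 with siOGT1, and from 2329 and 1411 to 1549 and 1751 with siOGT2. MAP2K3 and MAP2K4 kept their signs under that scaling. Of the 8, MAP2K3 passed there with siOGT1, and MAP2K3 and MAP2K4 with siOGT2. The calls of MAPK14 with either siRNA and of MAP2K2 with siOGT2 were lost.

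The genes whose levels over the 6 libraries lay nearest to those of MAP2K4 were found by Euclidean distance of the centred log2 values. They were MFHAS1 (distance 0.261), FNBP1L (0.284), PPARGC1A (0.288), HSPB8 (0.3005) and PPP3R1 (0.309), beside a median distance of 0.898 over all genes. MFHAS1 had means of 8.82, 9.39 and 5.97 FPKM with siNC, siOGT1 and siOGT2. PPARGC1A, which encodes the transcriptional coactivator PGC-1 alpha, had 3.58, 3.07 and 1.81. HSPB8, a small heat shock protein gene, had 67.5, 63.4 and 45.0, and PPP3R1, the regulatory subunit gene of calcineurin, had 16.0, 18.1 and 11.8. All 5 were lowest with siOGT2, which the measure of likeness selects for.

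The other genes of the relay were taken from 5 lists, drawn up from textbook knowledge with results of these libraries known. Their tests are limma's two-sided tests adjusted over all 10547 genes. The 2 siOGT comparisons share their control libraries.

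Counts of genes called in the lists stand beside the shares of all genes given above, and nothing is called particular to a list.

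Of the upstream kinases and their partners, 26 of 28 were tested: 3 rose and 1 fell with siOGT1, and 5 rose and 2 fell with siOGT2. MAP4K4 rose by 0.14 and 0.10 (adjusted p = 0.0159 and 0.0423), or by 0.12 and 0.08 without siNC replicate 1. Its siOGT2 call was lost with no filter, no trend, the replicate block, trimmed mean scaling (0.06) and quantile normalization. That call was also lost without either siNC library or either siOGT2 library (0.08 to 0.11). The siOGT1 call of MAP4K4 was lost with no trend, without either siNC library (0.12 and 0.16) and without siOGT1 replicate 1 (0.13). MAP3K4, which phosphorylates MAP2K4 and other stress MAP2Ks, rose by 0.25 with each siRNA (adjusted p = 0.00695 and 0.00396), from 5.88 to 7.17 FPKM in both, and missed the threshold for siOGT1 without siNC replicate 1 (0.22, adjusted p = 0.0583). TNIK, a kinase that acts on the JNK pathway from further upstream, fell by 0.30 with siOGT1 (adjusted p = 0.00680; -0.27 and adjusted p = 0.0582 without siNC replicate 2) and stood at 0.07 with siOGT2 (adjusted p = 0.381), with a difference between the siRNAs of -0.37 (adjusted p = 0.00251). MAP3K20, the stress kinase ZAK, rose by 0.18 with siOGT2 (adjusted p = 0.00632; 0.14 and adjusted p = 0.0538 without siNC replicate 1) and stood at 0.01 with siOGT1, with a difference between the siRNAs of -0.17 (adjusted p = 0.0162). The MAP3K20 difference between the siRNAs lost its call when any 1 of the 4 siOGT libraries was left out (-0.18 to -0.15). With 1 library left out the number called ranged from 1 to 5 with siOGT1 and from 2 to 7 with siOGT2. The lowest were reached without either siNC library for siOGT1, and without siNC replicate 2 or siOGT2 replicate 2 for siOGT2.

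Of the other MAP2K and MAPK genes, 7 of 12 were tested. With siOGT1 none passed at adjusted p (limma), 4 had an unadjusted p under 0.05, and voom on recovered reads called 0. Without siNC replicate 2, or without siOGT1 replicate 1, limma called 1. With siOGT2, MAPK3, the ERK1 gene, rose by 0.25 (adjusted p = 0.0214), from 7.40 to 8.94 FPKM. That call was lost with no filter, without siNC replicate 1 (0.15) and without either siOGT2 library (0.25 in both). The remaining JNK gene MAPK10 and the p38 genes MAPK11 and MAPK12 were below 1 FPKM in every library and were not tested, and MAPK13 was between 1.34 and 1.78 FPKM.

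Scaffolds and adaptors, which hold the kinases together or switch on a MAP3K, had 11 of 13 tested. With siOGT1 1 fell, and with siOGT2 4 fell and 1 rose. SH3RF1 (POSH), a scaffold of the JNK pathway, fell with siOGT2 from 20.1 to 15.9 FPKM (log2 difference -0.33, adjusted p = 0.000791) and stood at 18.9 with siOGT1 (adjusted p = 0.212). GADD45A and GADD45B, which bind and activate MAP3K4, fell with siOGT2 by 0.21 and 0.29 (adjusted p = 0.00533 and 0.00142) and stood at 0.02 and -0.04 with siOGT1 (adjusted p = 0.815 and 0.552). All 3 genes were lower with siOGT2 than with siOGT1 by the direct test, with differences of 0.24, 0.23 and 0.25 (adjusted p = 0.00790, 0.00675 and 0.00644). Without siOGT2 replicate 2, SH3RF1 (0.19) and GADD45A (0.24) lost that call and the list's calls between the siRNAs went from 4 to 1. GADD45A also lost it without siOGT2 replicate 1 (0.22) and with no filter (0.23). The GADD45A call for siOGT2 against siNC was lost with no filter too. SPAG9 (JIP4) fell with both, by 0.16 and 0.17 (adjusted p = 0.0189 and 0.00609). The SPAG9 call was lost for siOGT1 with no filter, with no trend, and without siNC replicate 2 (-0.12) or either siOGT1 library (-0.15 and -0.16). For siOGT2 it was lost without siNC replicate 2 (-0.14) or siOGT2 replicate 2 (-0.15). Without siOGT2 replicate 2 the list's calls went from 5 to 3 with siOGT2.

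Phosphatases that act on MAPKs had 15 of 18 tested, of which 4 fell and none rose with siOGT1, and 6 fell and 1 rose with siOGT2. DUSP1, which removes the activating phosphates from p38 and JNK, fell from 80.2 FPKM with siNC to 68.4 with siOGT1 (-0.23, adjusted p = 0.00424) and 54.9 with siOGT2 (-0.54, adjusted p = 1.31e-05). DUSP5, which acts on ERK in the nucleus, fell from 14.1 to 10.6 and 8.79 FPKM (-0.38 and -0.62, adjusted p = 0.00268 and 8.56e-05). DUSP16, a JNK phosphatase, fell by 0.18 and 0.37 (adjusted p = 0.0297 and 0.000571). Its siOGT1 call was lost when either siNC or either siOGT1 library was left out (-0.20 to -0.17), and with no filter. PPM1D (WIP1), which acts on p38, stood at 26.2 FPKM with siOGT1 against 24.9 with siNC (adjusted p = 0.260) and fell to 20.0 with siOGT2 (adjusted p = 0.000517). Between the siRNAs 5 of the 15 were higher with siOGT1, with DUSP1 at 0.31 (adjusted p = 0.000813) and PPM1D at 0.37 (adjusted p = 0.000287). These 5 became 2 without siOGT1 replicate 2 or siOGT2 replicate 2, and 3 without siOGT1 replicate 1 or siOGT2 replicate 1. With 1 library left out the list's calls ranged from 2 to 4 with siOGT1 and from 5 to 8 with siOGT2, and the low value for siOGT1 came without siNC replicate 1 and without either siOGT1 library.

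Targets of JNK and p38 moved in both directions, with 19 of 20 tested. With siOGT1 6 rose and 3 fell, and with siOGT2 4 rose and 4 fell. With trimmed mean scaling the split was 2 and 4 for siOGT1 and 3 and 4 for siOGT2, and with quantile normalization 4 and 4, and 3 and 3. JUN, whose protein is the transcription factor that JNK phosphorylates, fell from 89.9 FPKM to 73.7 with siOGT1 (-0.28, adjusted p = 0.00121) and to 65.2 with siOGT2 (-0.46, adjusted p = 3.91e-05), and was higher with siOGT1 than with siOGT2 by 0.18 (adjusted p = 0.0155). The JUN difference between the siRNAs lost its call without siOGT1 replicate 2 (0.17), without siOGT2 replicate 2 (0.125), with no filter and with no trend (0.18 in both). MAPKAPK3, a kinase switched on by p38, rose from 11.9 to 14.1 and 15.1 FPKM (0.23 and 0.32, adjusted p = 0.00377 and 0.000347). HSPB1, a heat shock protein phosphorylated downstream of p38, rose by 0.21 and 0.22 (adjusted p = 0.0124 and 0.00518). Its siOGT1 call was lost with no filter, with no trend, without siNC replicate 2 (0.15) and without siOGT1 replicate 1 (0.17). RPS6KA4 (MSK2), a nuclear kinase downstream of p38 and ERK, rose by 0.15 and 0.21 (adjusted p = 0.0367 and 0.00448), and the siOGT1 call was lost in 12 of 16 alternatives, among them with any 1 of the 6 libraries left out (0.14 to 0.15). With 1 library left out the list's calls ranged from 2 to 7 with siOGT1 and from 5 to 7 with siOGT2. The lowest came without siNC replicate 2 for siOGT1, and without siNC replicate 2 or either siOGT2 library for siOGT2.

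**Figure D4:**
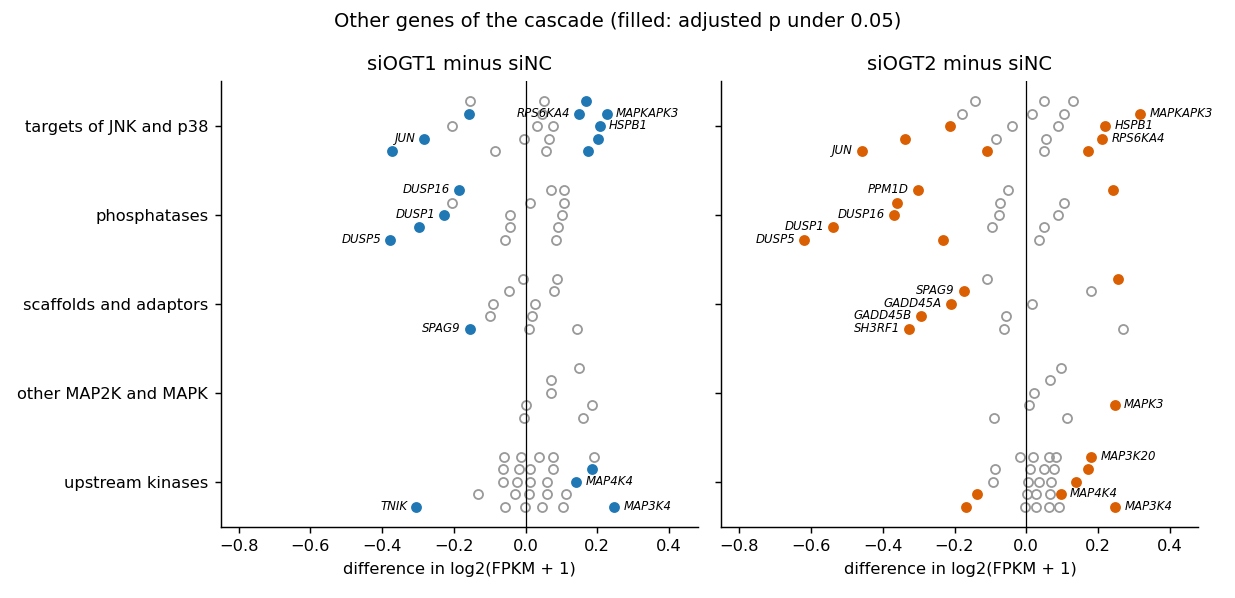
Difference from siNC in log2(FPKM + 1) (horizontal axis) of each tested gene of the 5 lists, in siOGT1 (left) and siOGT2 (right), with filled points for genes past an adjusted p of 0.05 and names for genes described in the text. Among phosphatases the filled points are 4 lower with siOGT1, and 6 lower and 1 higher with siOGT2.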

How the data were processed

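RNA-seq of 6 KGN libraries, 2 each for siNC, siOGT1 and siOGT2, was used. Per the submitters' processing notes, reads were trimmed with cutadapt 1.15 and aligned to GRCh38 with HISAT2. Not given in the sources used here were the counting program, the annotation and the strandedness of the libraries. The table deposited by the authors holds FPKM values, scaled to gene length and library total.

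Library totals were recovered from the deposited FPKM values as whole reads per gene. With a tolerance of 0.01 reads, 99.99% of tested genes gave whole reads, and totals were 20152533 and 20113114 (siNC), 18408360 and 21416489 (siOGT1), and 18123136 and 16756649 reads (siOGT2). Counting error was 3.61% of the level for the 767 reads of MAP2K4 in siOGT2 replicate 2. Groups were taken from the sample titles. The 10547 genes at a mean of 1 FPKM or more were fitted as log2(FPKM + 1) with limma 3.58.1 in R 4.3.3 (lmFit, contrasts.fit, eBayes with trend), with 3 residual degrees of freedom. P-values were two-sided and Benjamini-Hochberg adjusted over all genes tested, with a threshold of 0.05, for 3 comparisons: each siOGT group with siNC, and siOGT1 with siOGT2. The code of the fit was run on simulated data with little spread beyond counting error, which gives no error rate for these libraries. The 9 genes and the lists were chosen with earlier results of these data known. Named besides them were OGT, up to 4 called genes of each list with the smallest p, and the 5 genes nearest to MAP2K4. Other genes named, such as ZNF18, ELAC2 and MAPK13, were chosen after their values were seen. There were 16 alternative settings: the pseudocount (0.1 and 5), the filter (none, and mean FPKM of at least 5), scaling (trimmed mean of log ratios, quantile), no trend, the replicate number as a block, voom on recovered reads, each library left out, and only the groups compared.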

Additional observations from a re-analysis of the deposited data

Results flagged for a closer look

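The kinase gene MAP2K4 differed between the siRNAs, with siOGT1 minus siOGT2 at 0.77 on the log2(FPKM + 1) scale, and MAPK9 did so at -0.23. Both were chosen with these libraries known, and these values are given as a description.

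Among the other genes of the relay that are named, limma's direct test between the siRNAs passed for 10, again as siOGT1 minus siOGT2 in log2(FPKM + 1). These genes were named for a small p against siNC, in tests that use the same siOGT libraries, so nothing is read from that count. Of all tested genes of the lists, it passed for 4 of 26 upstream kinases and 0 of 7 other MAP2K and MAPK genes. It passed for 4 of 11 scaffolds and adaptors, 5 of 15 phosphatases and 3 of 19 targets, beside 16.6% of all genes tested. Of the upstream kinases, TNIK differed by -0.37 and MAP3K20 by -0.17. Of the scaffolds and adaptors, SH3RF1 differed by 0.24, GADD45B by 0.25 and GADD45A by 0.23. Of the phosphatases, DUSP1 differed by 0.31, DUSP5 by 0.24, PPM1D by 0.37 and DUSP16 by 0.18. The target gene JUN differed by 0.18. OGT differed by -0.11, which did not pass.

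These 10 calls were not all kept when 1 library was left out. Without siOGT2 replicate 2, 4 of them passed (TNIK, GADD45B, DUSP1 and PPM1D), and without siOGT1 replicate 2, 6 did (those 4 with SH3RF1 and GADD45A). The number was 7 without siOGT2 replicate 1, 8 without siOGT1 replicate 1 and 6 with no filter. DUSP5 lost its call without siOGT1 replicate 2 (0.20), siOGT2 replicate 1 (0.21) or siOGT2 replicate 2 (0.28). DUSP16 lost its call with any library other than siOGT2 replicate 1 left out (0.13 to 0.19), and with only the groups compared. Both genes also lost it with no filter and with no trend.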

How the results depend on the processing

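Of 378 differences of the 8 kinase genes under alternatives, 359 moved by less than the spread between replicates, 19 moved by more and none that had passed the threshold changed sign. MAP2K4 with siOGT2 ranged from -0.77 (voom) to -0.52 (pseudocount 5), a description of a gene chosen with these libraries known. The number of the 8 past the threshold with siOGT1 was 1 with no filter, with trimmed mean scaling, with quantile scaling and with no trend, and 0 to 2 with 1 library left out. The 0 came without siNC replicate 2, where limma gave 2 genes (MAP2K3 and MAPK14) an unadjusted p under 0.05 and voom on all libraries called 2. With siOGT2 it was 2 with trimmed mean scaling and 2 to 4 with 1 library left out. Between the siRNAs it was 1 with no filter and 1 with a mean FPKM of at least 5, which removes MAPK9 and MAP2K7. It was 3 with quantile normalization and 3 with voom, where MAP2K7 passed beside MAP2K4 and MAPK9.

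Over all genes, limma called 1857 with siOGT1, 1138 with no filter and 945 (without siNC replicate 1) to 1737 with 1 library left out. It called 3740 with siOGT2 and 2222 (without siOGT2 replicate 2) to 3749 with 1 left out. Between the siRNAs it called 1750, 1017 with no filter and 816 (without siOGT2 replicate 2) to 1533 with 1 left out. Voom on recovered reads called 2540, 4222 and 2280. The named genes of the lists, in the 37 comparisons that called them, kept their direction in all of 590 values, and 516 of these kept their call. Where 1 library of a group was left, it was assumed to vary like the other groups.

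The replicate numbers did not pair the libraries (correlations of same-numbered deviations -0.02, -0.03 and 0.05). With the replicate block, 1773, 3636 and 1674 genes were called, and 2, 3 and 2 of the 8, MAPK14 with siOGT2 being the gene lost. MAP2K6, with 2 to 11 reads, was too low in depth for a comparison.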
